A study of Brassica juncea with 4 samples.

Results

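In leaves of Brassica juncea (Indian mustard), 137 of the 43603 probes on a Brassica oligonucleotide array were detected in both genotypes and gave clearly lower signals in plants that overexpress BnCRY2a than in wild type. The members were chosen from the measured signals. A probe was included if it was well above background on all 4 arrays and its level was at least 1 lower on the log2 scale, that is at least 2-fold, in each of the 4 pairings of a BnCRY2aOE array with a wild-type array. A level is the log2 processed signal of a spot minus the 75th percentile of its array, so that a level of 0 lies at that percentile. Of the 27942 probes that were well above background and had a level on all 4 arrays, 0.49% met this rule downward and 109 probes, 0.39%, met it upward. For 133 of the 137 probes the files give an identifier of the source sequence, the transcript or transcript fragment from which the probe was designed, and these name 130 sequences; for the other 4 only the probe ID is given. Each was read from 1 spot per array.

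The transgenic plants, labelled BnCRY2aOE, overexpress a cryptochrome 2 gene of Brassica napus, and the controls were wild-type plants of cultivar RLM-198; the labels give that cultivar for the transgenics too. Each genotype was represented by 2 leaf samples that the labels call biological replicates, taken 45 days after sowing with no special treatment, and each was hybridised to 1 one-colour array. The promoter of the transgene, the number of transgenic lines and the number of plants behind a sample are not stated in the labels used here, so any p-value measures only the spread between these samples. Cryptochromes are blue-light receptors that carry a flavin. In Arabidopsis, light-activated cryptochrome 2 acts in the nucleus, where it binds transcription factors and inhibits a ubiquitin ligase complex that degrades others, and it is known for promoting flowering in long days and for restraining stem elongation in blue light. Leaves express many genes under light control, and a transcriptome comparison asks which transcripts differ in level when the receptor is more abundant.

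The array was designed for Brassica napus, so signal also depends on how well a Brassica juncea transcript matches its probe, and the brightness of different probes is not a scale of transcript abundance. The files pair the probes with source sequence identifiers but with no gene name, so no role can be given for a member, leaf marker genes could not be checked and the level of BnCRY2a itself is not reported. The share of probes well above background lay between 67.5% and 71.4% per array, and the 75th percentile of processed signal lay between 217 and 254 brightness units. All 4 arrays lay on 1 slide and were scanned together, per the file headers.

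Across the 137 probes the lowering in BnCRY2aOE ran from 2.11-fold to 78.9-fold, with a median of 3.63-fold. The difference in mean level, BnCRY2aOE minus wild type, had a median of -1.86 and a middle 50% between -2.65 and -1.52, while its median over all 27942 detected probes was -0.02. These differences are what the rule selected on, and they are given as a description. By size, 32 probes were lower by between 1 and 1.5 on the log2 scale, 47 between 1.5 and 2, 36 between 2 and 3, 14 between 3 and 4, and 8 of at least 4. The gap held in every pairing by at least 2 on the log2 scale (at least 4-fold) for 39 probes and by at least 3 for 15. Each pairing of single arrays gave a similar picture, with medians of -1.88 and -1.94 for BnCRY2aOE replicate 1 against the 2 wild-type arrays. For BnCRY2aOE replicate 2 the medians were -1.81 and -1.84. With normexp background correction of the raw median signal, an offset of 50 and quantile scaling in place of the processed signal and the 75th percentile, all 137 stayed lower in all 4 pairings, but 49 met the 2-fold limit and the median difference was -0.92.

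**Figure D1:**
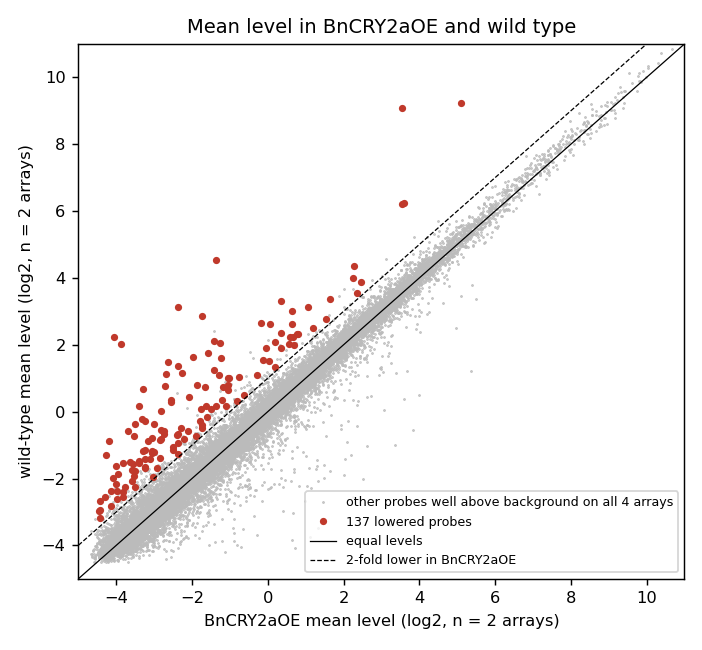
Mean level of each probe in BnCRY2aOE (horizontal axis) and wild type (vertical axis), both on the log2 scale defined above, with grey points for the other detected probes and red points for the 137 lowered ones. The red points lie above the dashed line of a 2-fold lowering, and the pair at a wild-type level above 9 stands far from the grey diagonal.

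The lowered probes included dim and bright ones. Their mean levels ran from -4.46 to 5.11 in BnCRY2aOE, with a median of -2.37, and from -3.19 to 9.23 in wild type, with a median of 0.09. Over all detected probes the median level was -0.74 in both genotypes. In wild type 70 of the 137 (51.1%) lay above the array's 75th percentile, compared with 38.8% of detected probes. Higher wild-type levels are favoured by the rule itself, because a member must stay well above background in BnCRY2aOE after the lowering. The 137 fall into 3 patterns by where the 2 genotype means lie relative to that percentile. In 27 probes both means lay above it, and their median difference was -1.73 (range -5.55 to -1.13). The median signals of these 27 were 460 and 442 brightness units on the BnCRY2aOE arrays and 1327 and 1585 on the wild-type arrays.

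In 43 probes the wild-type mean lay above the 75th percentile and the BnCRY2aOE mean below it. Their median signals were 84.2 and 74.7 units in BnCRY2aOE against 448 and 442 units in wild type, and the median difference was -2.67, with the largest at -6.30. In the remaining 67 probes both means lay below the percentile, with median signals of 26.4 and 22.8 units in BnCRY2aOE and 90.0 and 91.2 units in wild type and a median difference of -1.74.

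**Figure D2:**
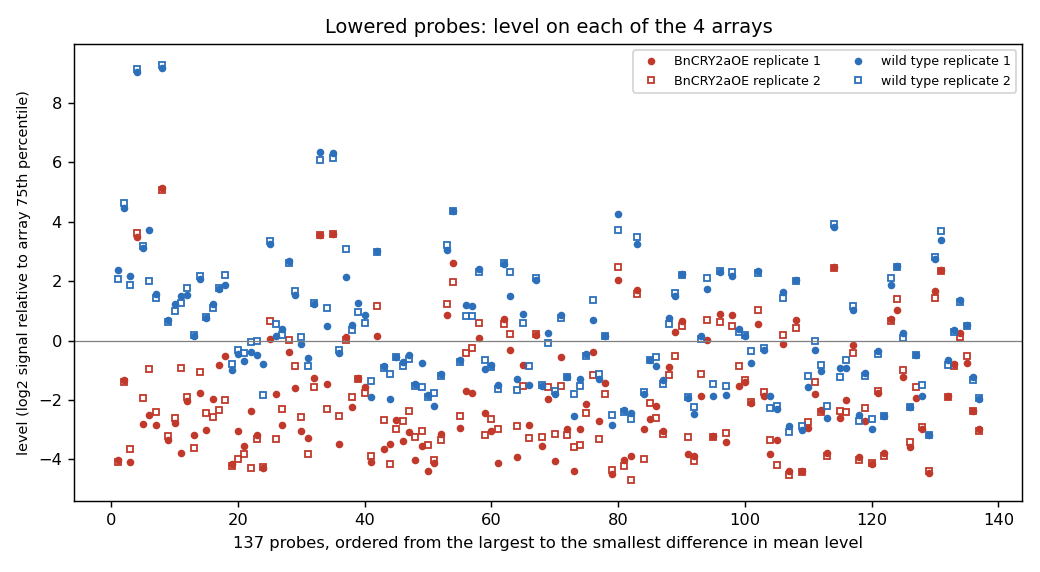
Level of every lowered probe on each array (log2, 0 being the 75th percentile of that array), ordered from the largest to the smallest difference in mean level. Red symbols are the 2 BnCRY2aOE arrays and blue symbols the 2 wild-type arrays; in every probe both red symbols lie below both blue ones.

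The largest difference belonged to probe A_46_P167719. Its signal was 15.5 and 12.7 units in BnCRY2aOE and 1153 and 956 units in wild type. Its level was -4.07 ± 0.04 in BnCRY2aOE and 2.23 ± 0.22 in wild type (SD, n = 2 each), 78.9-fold lower. Both BnCRY2aOE spots were dim but still counted as well above background, while in wild type the probe was several times brighter than the 75th percentile.

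The probe with the second largest difference read 100 and 82.2 units in BnCRY2aOE and 4821 and 5589 units in wild type, 60.2-fold lower. It was among the 8 brightest lowered probes in wild type, and below the 75th percentile in BnCRY2aOE. The third gave 15.0 and 17.4 units in BnCRY2aOE and 982 and 825 units in wild type, 58.7-fold lower, so it resembled A_46_P167719 on all 4 arrays. The fourth kept a bright signal in both genotypes, with 2824 and 2667 units in BnCRY2aOE and 115715 and 128271 units in wild type, 46.7-fold lower. The fifth had 36.0 and 56.6 units in BnCRY2aOE and 1894 and 2048 units in wild type, 45.9-fold lower. In all 5 the replicates of a genotype lay far closer to each other than to the other genotype.

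The sixth was less even, with 44.7 and 113 units in BnCRY2aOE and 2920 and 909 units in wild type. Its mean difference corresponds to 24.2-fold, but the SD was 1.10 in BnCRY2aOE and 1.22 in wild type (log2, n = 2 each), and the closest pairing differed by 2.95. The seventh read 35.4 and 40.8 units in BnCRY2aOE and 646 and 608 units in wild type, 17.4-fold lower. All of the 8 largest differences came from probes that were above the 75th percentile in wild type. This follows in part from the rule, because a dim wild-type probe could not fall so far and still be detected in BnCRY2aOE. Of the 8, 3 were also among the 8 brightest lowered probes in wild type.

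Probe A_46_P138549 had the highest wild-type level of all members and the eighth largest difference. It gave 8970 and 7366 units in BnCRY2aOE and 126432 and 141806 units in wild type. The levels were 5.11 ± 0.04 in BnCRY2aOE and 9.23 ± 0.09 in wild type (SD, n = 2 each), 17.3-fold lower. It shares its source sequence with the member of the fourth largest difference, so these 2 are not independent observations of 2 transcripts.

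Next in wild-type brightness, after the pair just described, were 2 probes of different source sequences with nearly equal values. One read 3069 and 2617 units in BnCRY2aOE and 17628 and 16099 units in wild type, 6.26-fold lower. The other read 3001 and 2529 units in BnCRY2aOE and 17834 and 15465 units in wild type, 6.35-fold lower. On no array did their levels differ by more than 0.06 (log2). Other members of different source sequences also had similar levels, such as 2 that differed by at most 0.15 (log2) on any array. Whether any of these source sequences overlap was not analysed here.

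The fifth brightest was the probe with the second largest difference, described above. The sixth to eighth had smaller differences. The sixth read 1546 and 847 units in BnCRY2aOE and 4474 and 4614 units in wild type, 4.18-fold lower. The seventh read 1039 and 1200 units in BnCRY2aOE and 4193 and 3024 units in wild type, 3.36-fold lower, and the eighth 1410 and 1183 units in BnCRY2aOE and 3125 and 3437 units in wild type, 2.67-fold lower. In each of these 3 the genotypes were separated on all arrays, although the replicates of one or both genotypes differed visibly in the sixth and seventh.

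Small differences could be as even as large ones. In the 4 members with the smallest replicate differences, no 2 replicates differed by more than 0.074 (log2). The most even of these read 11.6 and 10.3 units in BnCRY2aOE and 24.1 and 24.9 units in wild type, 2.36-fold lower, near the dim end of the list. The second read 147 and 121 units in BnCRY2aOE and 281 and 277 units in wild type, 2.20-fold lower. The third had 48.8 and 42.2 units in BnCRY2aOE and 92.8 and 91.2 units in wild type, 2.13-fold lower, and the fourth 291 and 251 units in BnCRY2aOE and 904 and 982 units in wild type, 3.67-fold lower. Brightness values are unscaled, and the 75th percentile was 254 and 217 units on the BnCRY2aOE arrays and 220 and 227 units on the wild-type arrays.

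The threshold cuts through a continuous range. The 3 members closest to it had closest pairings of -1.004, -1.012 and -1.015. Their mean levels were -0.64, -3.02 and -2.93 in BnCRY2aOE and 0.50, -1.94 and -1.68 in wild type. Just outside lay 3 probes with closest pairings of -0.9997, -0.9991 and -0.989, whose mean levels were -1.43, 1.27 and 2.76 in BnCRY2aOE and -0.29, 2.38 and 3.95 in wild type. Their mean differences of -1.15, -1.11 and -1.19 were as large as those of the 3 members just inside, at -1.13, -1.07 and -1.25.

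The rule also sets a ceiling on the differences it can include, because a member must stay well above background in BnCRY2aOE. The lowest level of any probe well above background was -4.76 and -4.82 on the BnCRY2aOE arrays and -4.57 and -4.65 on the wild-type arrays. From their wild-type mean down to the nearer of the 2 BnCRY2aOE limits, members had a distance of 4.85 at the median (range 1.57 to 14.0, log2). The lowering used 48.6% of that distance at the median and up to 90.13% in A_46_P167719. In 31 members (22.6%) at least 1 BnCRY2aOE array lay within 1 log2 unit of the limit, as did 7.16% of detected probes. Of the 88 members with a distance of 4 or more, 8 used at least 4 of it. A further 114 tested probes were at least 1 lower in all 4 pairings but were not well above background on all 4 arrays, so they are outside the rule.

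**Figure D3:**
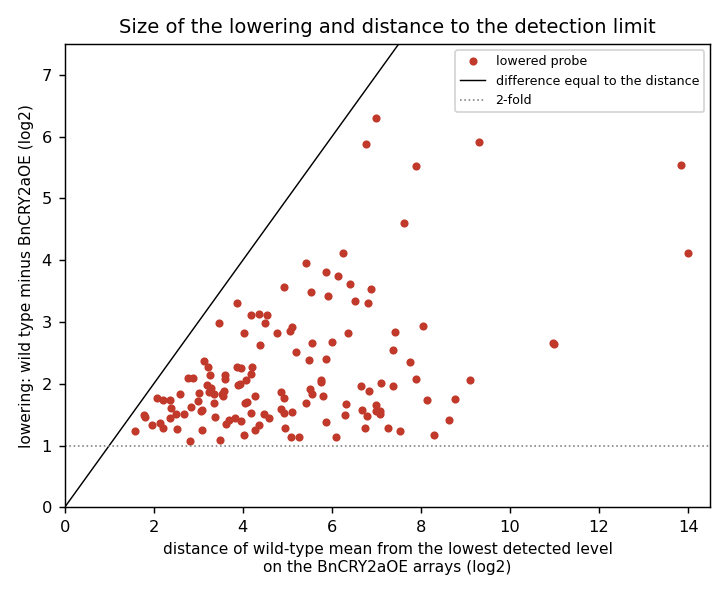
For each lowered probe, the difference wild type minus BnCRY2aOE (vertical axis, log2) against the distance of its wild-type mean from the lowest level well above background on the BnCRY2aOE arrays (horizontal axis, log2). No point can lie much above the solid line, where the difference equals the distance; the points with distances over 10 lie far below it.

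The rule did not require a second probe for the same source sequence to be lower, but a second probe that met the rule is itself a member. Of the 137 members, 12 (8.76%) come from 9 source sequences with several probes on the array, compared with 15.0% of all detected probes, and the other 125 stand alone. These 9 sequences carry 9 further probes that are not members, 8 of them well above background on all 4 arrays. The remaining 1 was lower in all 4 pairings and is included in the counts that follow, although the shares of detected probes leave such probes out. Of the 9, 7 had a lower mean in BnCRY2aOE and 6 were lower in all 4 pairings; over all detected probes 54% had a lower mean and 19.6% were lower in all 4 pairings. Their differences ran from -0.99 to 0.62 with a median of -0.59, which was -0.30 without BnCRY2aOE replicate 1 and -0.24 with normexp. None was called lower by the limma test described below. Since the members are the most strongly lowered probes of their sequences by choice, smaller differences in the remaining probes follow in part from the rule.

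In the first sequence, which holds A_46_P138549 and the member 46.7-fold lower, the remaining probe was brighter than both. It read 186636 and 163969 units in BnCRY2aOE and 234893 and 265885 units in wild type, 1.504-fold lower. All 3 probes were above level 9 in wild type, while in BnCRY2aOE they lay at 9.54, 5.11 and 3.55. The size of the lowering thus differed by probe within 1 sequence.

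The second sequence showed a graded picture over its 3 probes, all lower in BnCRY2aOE on every array. The members were lower by 45.9-fold and 2.67-fold. The third probe, at 613 and 502 units in BnCRY2aOE and 1107 and 995 units in wild type, was 1.99-fold lower in the mean. It missed the rule with a closest pairing of -0.86. In the third sequence both probes were members. They read 13.0 and 11.3 units in BnCRY2aOE with 128 and 64.3 units in wild type, and 21.6 and 26.3 units in BnCRY2aOE with 130 and 76.4 units in wild type. The 2 probes differed together between the wild-type replicates, by 1.04 and 0.81 on the log2 scale.

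A lowering that a second probe shared to nearly 2-fold was seen in 2 more sequences. In the sixth, the member was 3.25-fold lower and its partner read 24.9 and 20.4 units in BnCRY2aOE and 43.9 and 40.4 units in wild type, 1.97-fold lower. In the ninth, the member was 2.45-fold lower and its partner read 291 and 195 units in BnCRY2aOE and 438 and 457 units in wild type, 1.98-fold lower. Together with the third probe of the second sequence, these partners had differences between -0.99 and -0.98.

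Other partners differed less or in the opposite direction. In the fourth sequence the member read 35.8 and 44.3 units in BnCRY2aOE and 290 and 258 units in wild type, 7.23-fold lower. Its 2 partners had differences of -0.06 and 0.10, and their arrays overlapped between the genotypes. In the seventh the member was 2.96-fold lower, with 477 and 333 units in BnCRY2aOE and 1090 and 1149 units in wild type. Its partner was higher in BnCRY2aOE by 0.62 (log2), with 1978 and 1274 units in BnCRY2aOE and 930 and 1030 units in wild type. The 2 probes had similar levels in wild type, 2.33 and 2.13, and separated in BnCRY2aOE to 0.76 and 2.76.

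In the eighth sequence the member was 2.52-fold lower and its partner 1.26-fold lower, with 869 and 953 units in BnCRY2aOE and 1053 and 1126 units in wild type. In the fifth the member was 4.23-fold lower. Its partner read 9.16 and 11.99 units in BnCRY2aOE and 15.6 and 14.8 units in wild type and was not well above background on all 4 arrays.

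**Figure D4:**
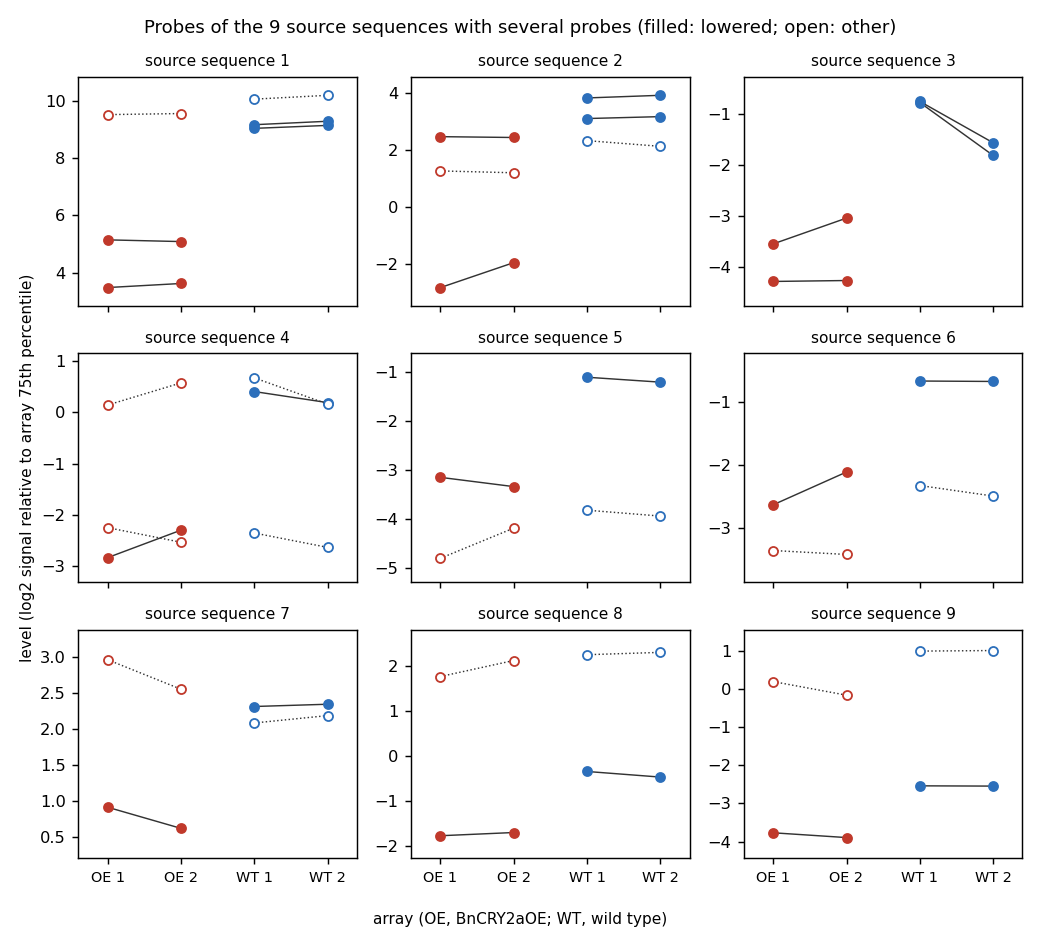
Level of each probe (log2, 0 being the 75th percentile of that array) on the BnCRY2aOE (OE, red) and wild-type (WT, blue) arrays for the 9 source sequences with several probes, numbered by the largest difference of a member. Filled symbols joined by solid lines are members and open symbols joined by dotted lines the other probes of the same sequence; vertical scales differ between panels.

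The members were read about as evenly between replicates as other detected probes. Their median difference between the 2 replicates was 0.36 in BnCRY2aOE and 0.16 in wild type (log2, absolute), where all detected probes had 0.33 in BnCRY2aOE and 0.16 in wild type. The BnCRY2aOE replicates differed more than the wild-type replicates in 94 members (68.6%), compared with 71.1% of detected probes. A replicate difference over 1 was found for 13 members in BnCRY2aOE and 2 in wild type, 9.49% and 1.46% of the members. The same shares over detected probes were 10.1% in BnCRY2aOE and 1.95% in wild type. The rule favours even replicates, because a wide spread makes it harder for all 4 pairings to pass.

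The widest spread belonged to a member at 18.3 and 113 units in BnCRY2aOE and 619 and 546 units in wild type. Its wild-type arrays lay close together, and even its brighter BnCRY2aOE array was at least 2.21 (log2) below both. BnCRY2aOE replicate 1 was above replicate 2 in 67 of the 137 members (48.9%) and in 48.6% of detected probes. Wild type replicate 1 was above replicate 2 in 66 members (48.2%) and in 50.5% of detected probes.

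**Figure D5:**
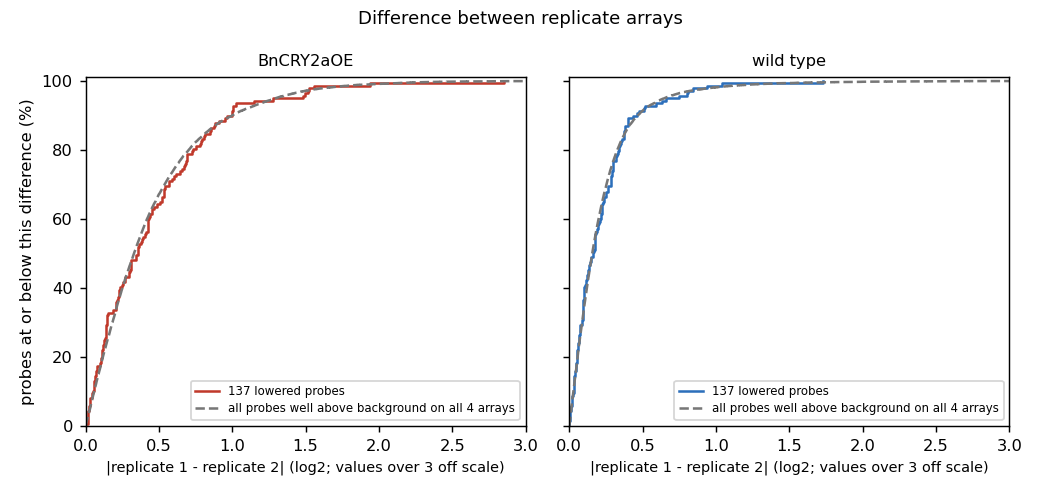
Share of probes (vertical axis, %) whose 2 replicate arrays differ by no more than the value on the horizontal axis (log2, absolute), in BnCRY2aOE on the left and wild type on the right. In both panels the coloured curve of the 137 lowered probes runs close to the dashed curve of all detected probes. Both curves rise more slowly in BnCRY2aOE than in wild type. The largest differences among all detected probes lie beyond the axis.

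The 109 probes raised by the mirrored rule were close to the lowered ones in size. Their median difference was 1.99 (range 1.08 to 6.60), set beside -1.86 (range -6.30 to -1.07). The median levels were 0.36 in BnCRY2aOE and -2.17 in wild type for the raised probes, nearly the reverse of the lowered ones. Both sets were chosen on the same contrast, so no test of a difference between them was made.

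In the fit over all 29949 tested probes, 31 of the 137 members were called lower in BnCRY2aOE (limma, Benjamini-Hochberg adjusted p under 0.05), where 0.257% of tested probes were called lower and 0.454% were called in either direction. The rule and the fit used the same contrast on the same arrays, so nothing is read from this count. The called members had a median difference of -3.11, the smallest being -1.87. Their median replicate difference in BnCRY2aOE was 0.21, while the 106 others had 0.39. Large differences and small replicate spread are what the fit calls on, so these values follow in part from it. The largest difference among the 106 others was -4.60. In fits with 1 array left out, the lone array was assumed to vary like those of the other genotype, so their counts are not given. With all 4 arrays, the fit above called 136 probes in either direction, 31 of them members. Limited to probes detected on every array, it called 30 probes, 16 of them members. Members were 15 of 31 calls with normexp, 8 of 46 without a filter on dim probes and 4 of 38 with a replicate block.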

How the data were processed

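RNA of 4 leaf samples was hybridised to one-colour Agilent arrays, with 50 ng RNA labelled with Cy3 per the labels. Per the file headers, the deposited intensity values come from Agilent Feature Extraction 10.7.3.1, which subtracted background and removed spatial and multiplicative trends. The authors' deposited table holds log2 values scaled per array and centred per probe, judged from the values; its exact scaling is not given in the sources used here. Its column medians were -0.02 and -0.05 for BnCRY2aOE replicates 1 and 2 and 0.05 and 0.00 for wild type replicates 1 and 2, and it served as an alternative.

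From the intensity, 43803 non-control spots were taken per array, marked outlier spots (10 to 55) were set to missing, and no spot was saturated. Levels are log2 processed signal minus the array's 75th percentile, averaged per probe. The fit (limma 3.58.1, R 4.3.3, lmFit and eBayes, two-sided, genotype as the only term) covered 29949 probes that both arrays of a genotype, either one, showed well above background, and was tested on simulated data. The raw mean intensity was not used here, so normexp ran on the raw median with an offset of 50. Precision is limited by the number of arrays.

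The members and lists were chosen with earlier results of these data known. Of the ordered members printed (the 8 largest differences, the 8 brightest in wild type, the 4 most even, 3 on each side of the threshold and all with a second probe), 2 are given by probe ID because no table names genes; the gene lists were therefore not used.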

Additional observations from a re-analysis of the deposited data

How the results depend on the processing

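All 137 members stayed lower in BnCRY2aOE in all 4 pairings under quantile and median scaling, kept outlier spots, the authors' table and normexp. The rule found 136 to 143 probes under these settings other than normexp, 134 or more of them members. The normexp setting changed the input to the raw median signal and added an offset of 50 and quantile scaling together. There the rule found 49 and the median difference was -0.92. Of 31 limma calls in either direction 15 were members, and the other probes of the same sequences had a median of -0.24. A limit of 1.5 gave 67 probes and of 0.8 gave 203. With 1 array left out, 2 pairings remain and detection was required only on the remaining arrays, so every member passes by construction. Under these looser conditions 265 to 551 probes met the rule, with median differences of the members from -1.91 to -1.85. The other probes of the same sequences then ran from -0.61 to -0.30. Members called by limma numbered 4 to 35 with 1 array left out (the genotype with a single array takes its spread from the other one), 16 when probes well above background on all 4 arrays alone were tested, 8 without a filter on dim probes and 4 with a replicate block. Same-numbered arrays deviated at r = -0.16 over tested probes; a crossed block, chosen after seeing the data, gave 31. Apart from the fewer pairings and the fewer arrays on which detection was required, the cause of these moves was not tested. The rule leaves dim members less room for a large difference, as described above. Any further effect of signal near background on their differences was not tested.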

Other observations

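The identifiers of the source sequences gave a description of what kind of sequence the members stand for. Of the 137, 50 (36.5%) carried an identifier that starts with TA or TC, a form used for assembled transcripts, as did 35.6% of detected probes. Other identifiers of 2 letters and 6 digits, the form of single sequence entries, were found for 81 (59.1%) and for 61.6% of detected probes. Another form was found for 2 members (1.46%) and for 0.94% of detected probes. In 4 members (2.92%) and 1.87% of detected probes the identifier was a probe ID, so no source sequence is named.

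The members lay in all parts of the array grid of 532 rows and 85 columns. With the rows cut into 4 equal bands, 23, 46, 37 and 31 members were found from the first to the last, 16.8%, 33.6%, 27.0% and 22.6%, where detected probes had 23.2%, 25.1%, 26.2% and 25.5%. In 4 equal bands of columns the members numbered 29, 35, 39 and 34. Another member lay within 2 rows and 2 columns of 11 of the 137 members (8.03%), and 6 of the 109 raised probes (5.50%) had another raised probe that close. Median local background at the members was 24 and 23 brightness units in BnCRY2aOE and 24 and 24 units in wild type. The median error that the scanner software assigned to a member's processed signal was 10.78% and 10.74% of the signal in BnCRY2aOE and 10.04% and 10.03% in wild type, and over detected probes 10.1% on each array.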
